A study of Homo sapiens with 4 samples.

Results

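The genes described here are 10 subunits of condensin and cohesin, measured on whole genome arrays in the human mammary epithelial line MCF10A.B2. They were chosen by name, as every array spot other than a control whose gene name is SMC2, SMC4, NCAPD2, NCAPG, NCAPH or NCAPD3 for condensin and SMC1A, SMC3, RAD21 or STAG2 for cohesin. These names took 17 probes, each spotted once per array, and all 10 genes were among the 20583 genes tested. MCF10A.B2 is the non-tumorigenic MCF10A line carrying a chimeric ErbB2 (Her2) receptor that the crosslinker AP1510 switches on. Of the 4 samples, 2 were control cells, labelled wild type for PAK1, and 2 were the same line with a shRNA against PAK1, which the study describes as tetracycline inducible. Cells of both groups carried the receptor, were grown with 5% horse serum, were starved of serum for 3 h and received AP1510 for 15 min before RNA was taken. The labels do not say whether the controls carried an uninduced shRNA, whether the shRNA cells were 1 clone or whether replicates were separate cultures, so p-values measure the spread between these arrays only. No array with a non-targeting shRNA was analysed here. The 4 arrays lay on 1 slide, between 78.8% and 82.9% of their probes were well above background, and their number limits the precision.

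Both complexes are rings closed around DNA. Each is built from a pair of SMC ATPases, a kleisin subunit that bridges their heads, and HEAT-repeat subunits that bind the kleisin. Condensin compacts chromosomes in mitosis: SMC2 and SMC4 are common to condensin I, which adds NCAPD2, NCAPG and NCAPH, and condensin II, which adds NCAPD3, NCAPG2 and NCAPH2. Cohesin, made of SMC1A, SMC3, the kleisin RAD21 and STAG1 or STAG2, holds sister chromatids together from replication to anaphase and also folds interphase chromatin into loops.

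All 10 subunits were lower in PAK1 shRNA cells and passed the threshold, an adjusted p under 0.05 from limma over all genes tested. For STAG2 this rests on its brightest probe: 7 of 18 processing alternatives lost the call and 1 reversed it, and another STAG2 probe was higher by 0.62. Of all genes tested, 63.8% passed it in either direction and 32.4% passed it as lower, with 31.4% higher. The 6 condensin subunits had a median log2 fold change of -2.62 and ranged from -3.34 to -1.19. The 4 cohesin subunits had a median log2 fold change of -1.42 and a range from -1.86 to -0.24, beside a median of 0.016 over all genes. The fall was 2-fold or more for 6 of 6 condensin and 3 of 4 cohesin subunits, a size that 9.37% of all genes reached as well as the adjusted p. The values of both PAK1 shRNA arrays lay below those of both control arrays for each of the 10 genes, as for 40.2% of all genes. The ranges of the complexes overlapped, since the -1.19 of NCAPH lay within that of cohesin.

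**Figure D1:**
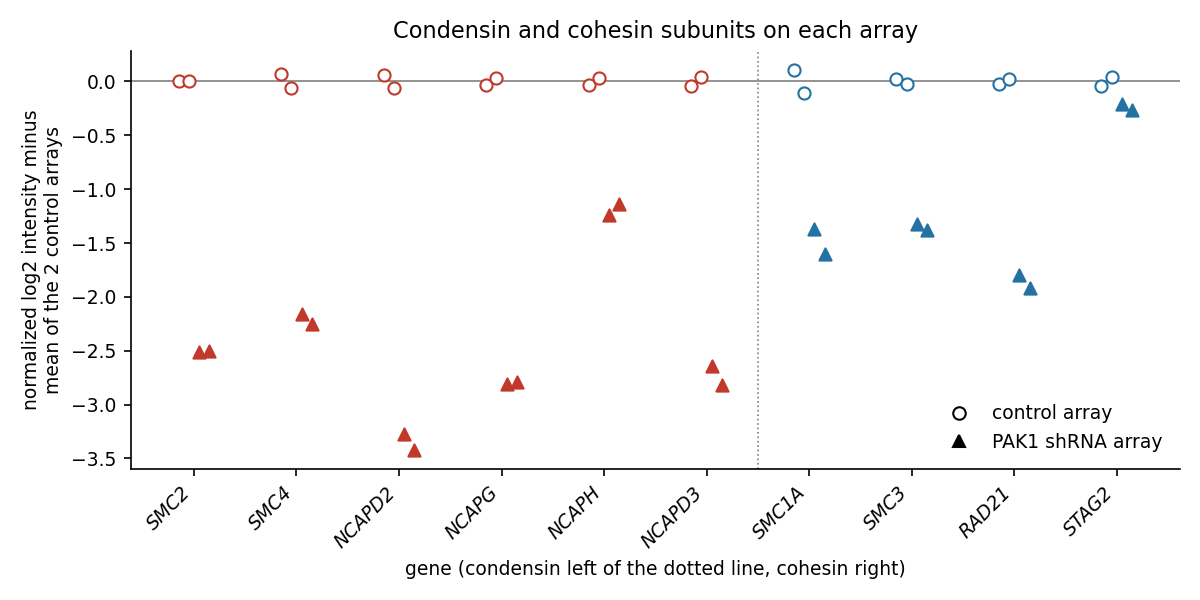
Normalized log2 intensity of each subunit on each of the 4 arrays, minus the mean of the gene's 2 control arrays; open circles are control arrays, filled triangles PAK1 shRNA arrays, red condensin and blue cohesin. The triangles lie below the circles for every gene, furthest for NCAPD2 (mean -3.34) and nearest for STAG2 (mean -0.24).

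The bases before the transcription starts are shown for the 3 subunits particular to condensin I, beside those of SMC3 of cohesin. Sequences are from RefSeq (GRCh38.p14), matched by symbol, in the direction of the gene, 250 bases ending just before the annotated start. They lie on chromosome 12 from 6493852 to 6494101 for NCAPD2, chromosome 4 from 17810729 to 17810978 for NCAPG, chromosome 2 from 96335516 to 96335765 for NCAPH and chromosome 10 from 110567445 to 110567694 for SMC3, all on the plus strand. Capitals mark letters of textbook elements read on either strand. These are CCAAT (the NF-Y box, ATTGG when reversed), TTTGAA (core of the cell cycle homology region) and the E2F-type letters TTTGGCGC, TTTCCCGC and GGCGGGAA. TTTCAA, a letter away from TTTGAA, was also searched and capitalized, and is not taken here as a form of that region.
NCAPD2: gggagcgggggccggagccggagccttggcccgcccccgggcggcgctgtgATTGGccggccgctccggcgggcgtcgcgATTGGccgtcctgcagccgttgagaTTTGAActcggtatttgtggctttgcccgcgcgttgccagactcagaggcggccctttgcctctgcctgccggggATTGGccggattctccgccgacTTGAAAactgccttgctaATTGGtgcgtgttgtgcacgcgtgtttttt
NCAPG: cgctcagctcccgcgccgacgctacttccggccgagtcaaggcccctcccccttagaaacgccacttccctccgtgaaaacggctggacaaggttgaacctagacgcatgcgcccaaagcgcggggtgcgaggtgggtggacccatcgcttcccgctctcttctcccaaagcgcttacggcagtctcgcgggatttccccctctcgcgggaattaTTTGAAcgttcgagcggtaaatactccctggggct
NCAPH: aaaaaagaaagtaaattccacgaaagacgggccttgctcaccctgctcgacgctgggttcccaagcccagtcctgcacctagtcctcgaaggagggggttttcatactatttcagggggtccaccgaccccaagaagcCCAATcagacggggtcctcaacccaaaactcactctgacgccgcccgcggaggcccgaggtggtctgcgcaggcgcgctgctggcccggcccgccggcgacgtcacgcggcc
SMC3: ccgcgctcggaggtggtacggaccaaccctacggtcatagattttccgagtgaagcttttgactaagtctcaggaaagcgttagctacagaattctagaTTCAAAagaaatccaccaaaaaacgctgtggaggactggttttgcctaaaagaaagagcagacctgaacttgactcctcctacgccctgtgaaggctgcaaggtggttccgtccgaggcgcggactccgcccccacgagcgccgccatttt
NCAPD2 held 4 reversed CCAAT boxes, the nearest from -30 to -26, with TTTGAA from -145 to -140. NCAPG held TTTGAA from -35 to -30, NCAPH a CCAAT box from -112 to -108, and SMC3 a reversed TTTGAA from -151 to -146. The search covered 9 of the 10 subunits, some with several starts, and left out RAD21. CCAAT was present in 3 of 9 condensin and 2 of 6 cohesin windows, and TTTGAA in 3 of 9 and 1 of 6. The cohesin windows with CCAAT were all of STAG2. Windows of the same length before all 35116 starts in the table held CCAAT in 32%, near both shares of the members, and TTTGAA in 13.3% of cases. TTTCAA (12.6% of all starts) was found for SMC4 and NCAPD2, where in SMC4 it overlaps a reversed TTTGAA. TTTCCCGC (1.39%) was found for NCAPD3 and SMC1A, GGCGGGAA (2.72%) for NCAPD3, overlapping the former, and TTTGGCGC (0.55%) for STAG2. SMC2, alone among the subunits searched, held none of these strings in any window. A match describes letters in the window and is not evidence of binding.

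The target of the shRNA was lower in the cells labelled for it. PAK1 had a normalized log2 intensity of 11.19 and 11.27 in the controls against 10.44 and 10.51 with the shRNA. The log2 fold change of -0.75 ± 0.08 (SE, adjusted p = 0.00016) left 59.4% of the control level. Of 7 basal mammary markers, 6 were well above background on all 4 arrays and were tested. Their summed intensity ran from 263597 to 293102 in control cells and from 184252 to 185234 in PAK1 shRNA cells. Of these 6, 4 passed as lower and COL17A1 as higher (log2 fold change 1.34), beside 32.4% and 31.4% of all genes. Of 6 fibroblast markers, COL1A2 and COL3A1 were well above background on no array. The 4 others summed to 3962 to 4712 in control cells and 7805 to 7989 in PAK1 shRNA cells. Of these 4, PDGFRB passed as lower (log2 fold change -0.58) and 3 as higher. Of 6 luminal markers, PGR was well above background on no array, and the sums of the 5 others were 56941 to 57457 and 63904 to 69756. Single luminal genes did not follow this sum. KRT19 (log2 fold change -1.02) and GATA3 (-0.49) passed as lower, KRT18 (0.35) passed as higher, and the median was -0.11. The 5 leukocyte markers summed to 19178 to 20060 in control cells and 49895 to 56104 in PAK1 shRNA cells, most of it CD14. CD68 had the largest change of that list, a 13.5-fold rise (log2 fold change 3.75, standard error 0.16, adjusted p = 3.8e-06), and CD14 rose 2.46-fold. The part of these markers in the values below was not tested. The 3 endothelial markers summed to 958 to 999 and 752 to 785. Among them PECAM1 passed as lower (log2 fold change -1.56) and VWF as higher (0.37).

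Proliferation markers moved with condensin. All 12 genes of the list, MKI67, TOP2A, CCNB1 and CDK1 among them, passed as lower, with log2 fold changes from -5.33 (BIRC5) to -1.54 (PCNA) and a median of -3.59. Their summed intensity was 175266 to 180784 in control cells and 15562 to 16865 in PAK1 shRNA cells. Of all genes tested, 32.4% passed as lower and 31.4% as higher. In RNA of a whole culture, fewer cells expressing a gene and less of its RNA per cell cannot be told apart, and the part of the proliferation genes in the condensin and cohesin values was not tested. Interferon-stimulated genes moved the other way, with 12 of 12 passing as higher, log2 fold changes from 2.24 (MX1) to 11.02 (RSAD2), a median of 7.01 and a summed intensity of 10191 to 10560 in control cells and 1481750 to 1720510 in PAK1 shRNA cells. Their part in the values was not tested either.

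Both SMC ATPases of condensin fell. SMC2 had a log2 intensity of 11.90 on each control array, against 9.39 and 9.40 with the shRNA. The replicates were almost superimposed, and SMC2 changed by -2.51 ± 0.07 (SE, adjusted p = 9.0e-07), to 17.6% of the control level. SMC4, its partner in both condensins, stood at 14.09 and 13.96 in the controls, falling to 11.87 and 11.77. It changed by -2.20 ± 0.08 (SE, adjusted p = 2.6e-06), 0.30 smaller in size than that of SMC2, with a combined standard error of 0.11 for that difference. This order rests on the brightest SMC2 probe. The other SMC2 probe gave -1.98, and with probes averaged SMC2 and SMC4 were at -2.25 and -2.22.

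Among the subunits particular to condensin I, NCAPH fell least, and NCAPD2 or NCAPG furthest depending on the background correction. NCAPD2, a HEAT-repeat subunit, stood at 14.81 and 14.70 in the controls and dropped to 11.49 and 11.34. This was a 10.1-fold fall (log2 fold change -3.34, standard error 0.09, adjusted p = 7.2e-07), and only 0.466% of the genes tested had a lower log2 fold change. NCAPG, the other HEAT-repeat subunit, went from 9.29 and 9.35 to 6.52 and 6.53, a log2 fold change of -2.80 (standard error 0.07, adjusted p = 6.9e-07). NCAPH, the kleisin of condensin I, went from 8.13 and 8.19 to 6.92 and 7.02. This change of -1.19 ± 0.08 (SE, adjusted p = 2.2e-05) left 43.9% of the control level. NCAPG and NCAPH were dim in PAK1 shRNA cells, where the offset of 50 added to every signal before the logarithm shrinks a change. The log2 fold change of NCAPG was -4.36 in the processed signal scaled to its 75th percentile, -3.78 with an offset of 1 and -1.72 with the background model fitted on all spots. That of NCAPH was -1.72, -1.63 and -0.69 under these settings, against -3.31, -3.37 and -3.22 for NCAPD2. NCAPG thus passed NCAPD2 under the first and second of these settings, while no direction changed.

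Condensin II was lower too. NCAPD3, its counterpart of NCAPD2, stood at 12.12 and 12.20 in the controls and at 9.52 and 9.34 with the shRNA. The change of -2.73 ± 0.09 (SE, adjusted p = 1.6e-06) left 15.1% of the control level. The remaining condensin II subunits, which are not among the 10 genes, also passed as lower. NCAPG2 went from 10.75 and 10.81 to 7.94 and 7.93 (log2 fold change -2.84, standard error 0.07), close to NCAPG. NCAPH2, the kleisin of condensin II, went from 14.22 and 14.29 to 12.47 and 12.46 (log2 fold change -1.79, standard error 0.07). In each condensin the kleisin gene had the smallest fall of its 3 particular subunits on the brightest probe of each gene, a description without a test.

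The cohesin core fell by less than most of condensin. SMC1A stood at 13.14 and 12.92 in the controls, against 11.66 and 11.43 under the shRNA, with the widest spread between replicates of the 10 genes. It changed by -1.49 ± 0.11 (SE, adjusted p = 4.6e-05), to 35.7% of the control level. SMC3, its ATPase partner, went from 13.22 and 13.17 to 11.87 and 11.81, a log2 fold change of -1.35 (standard error 0.07, adjusted p = 1.1e-05). SMC1A and SMC3 differed by 0.13 with a combined standard error of 0.14, so their falls could not be told apart. RAD21, the kleisin that separase cleaves at anaphase, stood at 14.77 and 14.82 in the controls and fell to 13.00 and 12.88. It had the largest fall of the 4 cohesin subunits, -1.86 ± 0.08 (SE, adjusted p = 4.2e-06), with 27.6% of the control level left.

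STAG2, the HEAT-repeat subunit found in most somatic cohesin, stood apart from the core. Its brightest probe read 11.83 and 11.92 in the controls against 11.67 and 11.61 with the shRNA. The groups did not overlap, but the change was only -0.24 ± 0.08 (SE, adjusted p = 0.030), and 32.3% of all genes had a lower one. It lost the threshold with any array but control replicate 1 left out, at -0.19 without control replicate 2, -0.27 without PAK1 shRNA replicate 1 and -0.21 without PAK1 shRNA replicate 2. The probes of STAG2 did not move the same way, as described below for all probes. STAG1, the alternative subunit, went on its only probe from 8.39 and 8.58 to 7.15 and 7.28 (log2 fold change -1.27, standard error 0.10, adjusted p = 4.4e-05).

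Compared within each array, the gap between the complexes widened. The mean log2 intensity of the 6 condensin probes lay below that of the 4 cohesin probes -1.52 and -1.49 in the controls and -2.77 and -2.70 with the shRNA. The level of this gap reflects probe brightness and has no meaning of its own; its change between the groups is the difference between the complexes. The difference of the medians, condensin minus cohesin, was -1.20 on the log2 scale. No p is given for it, because the genes were chosen with results of these data known. Ordered by log2 fold change, the genes ran NCAPD2, NCAPG, NCAPD3, SMC2, SMC4, RAD21, SMC1A, SMC3, NCAPH and STAG2. Neighbours within 2 combined standard errors of each other were NCAPG and NCAPD3, NCAPD3 and SMC2, SMC1A and SMC3, and SMC3 and NCAPH. The order depends on the background correction. With the 75th percentile of processed signals or an offset of 1, NCAPG came before NCAPD2 and NCAPH (-1.72 and -1.63) before SMC1A (-1.44 and -1.50) and SMC3 (-1.34 and -1.36). With normexp fitted on all spots, RAD21 (-1.82) came before NCAPG (-1.72).

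Several genes had more than 1 probe, and all 17 probes were well above background and unsaturated on all 4 arrays. Positions are those of the array files (hg19), which give no exon or UTR. The SMC2 probe used lies on chromosome 9 from 106903624 to 106903683, and its second probe gave -1.98 in place of -2.51. The SMC4 probe used lies on chromosome 3 from 160132206 to 160132265, and the second gave -2.23, the same within its error. For NCAPD2 the probes lie close together on chromosome 12, from 6641042 to 6641101 and from 6640598 to 6640657, and gave -3.34 and -2.98. The 3 SMC1A probes, spread over chromosome X between 53401153 and 53440244, gave log2 fold changes from -1.51 to -1.36. STAG2 was the exception. Its brightest probe lies on chromosome X from 123235840 to 123235899 and its dimmest from 123159708 to 123159767, where the change was -0.16 ± 0.08 (SE, adjusted p = 0.12). A probe placed from 123227937 to 123229223, a span of 1287 bases where every other probe of these genes spans 60, read 10.20 and 10.15 in the controls and 10.75 and 10.85 with the shRNA. It rose by 0.62 (standard error 0.08, adjusted p = 0.00033 over 26043 probes), and was 0.52 to 0.64 under the 6 background and scaling settings run for it. With the probes of each gene averaged, STAG2 was at 0.075 (adjusted p = 0.38).

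**Figure D2:**
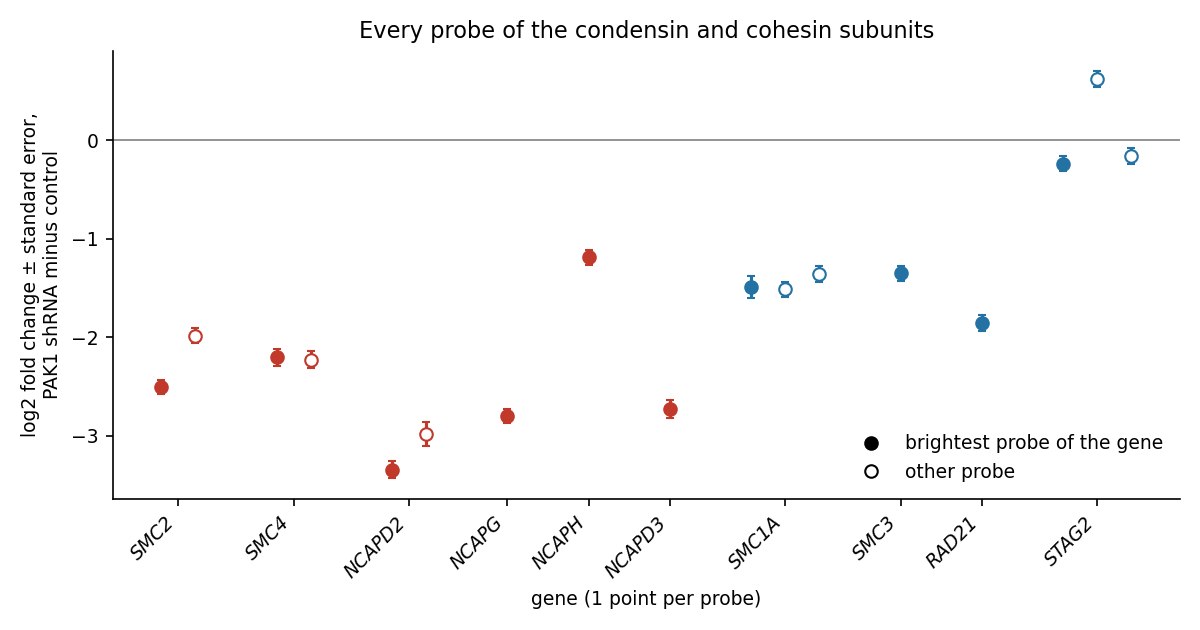
Log2 fold change (PAK1 shRNA minus control, error bars 1 standard error from limma) of each of the 17 probes; filled points are the brightest probe of a gene, open points the others. Probes of SMC2, SMC4, NCAPD2 and SMC1A lie on the same side of 0, while STAG2 has a probe at 0.62 and another at -0.24.

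Most regulators of cohesin were lower as well. Of 17 cohesin regulators, 14 passed as lower and 2 as higher, beside 32.4% and 31.4% of all genes. Their median log2 fold change was -1.60. The number lower was smaller with any array left out. It was 13 with probes averaged, with the 75th percentile or with an offset of 1. It was 12 with the unpaired t-test and 9 where a 2-fold change was also required. The number higher is not stable, and changed with some arrays left out. It was 1 with the unpaired t-test and 0 where a 2-fold change was also required. The largest falls were those of CDCA5 (sororin), which protects cohesin on replicated chromatids, at -3.82 (standard error 0.08), SGOL2 and SGOL1, the shugoshins that guard centromeric cohesin, at -3.23 and -3.04, and PTTG1 (securin), the inhibitor of separase, at -3.20. Separase itself (ESPL1) was at -2.72. ESCO2, an acetyltransferase of SMC3 in S phase, was at -2.48, whereas its paralog ESCO1 was higher by 0.30 (standard error 0.08, adjusted p = 0.013). DSCC1 and CHTF18, of the clamp loader that acts in cohesion, were both at -2.65, and the helicase DDX11 at -1.60.

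The list also holds genes that load, release and position cohesin. NIPBL, the loader, was at -0.26 (standard error 0.08, adjusted p = 0.032), and its partner MAU2 did not pass, at 0.27 (standard error 0.13, adjusted p = 0.12). WAPAL, the release factor, was at -0.29 on its brightest probe and 0.15 on the other, so its direction is uncertain. PDS5A and PDS5B were at -0.51 and -0.98, and CTCF, which stops cohesin on chromatin, at -0.82. HDAC8, the deacetylase of SMC3, had the highest value of the list at 0.77 (standard error 0.07, adjusted p = 0.00012), with its 4 probes between 0.17 and 0.94.

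The remaining cohesin subunits were chiefly those of meiosis. REC8, the meiotic kleisin that takes the place of RAD21, stood at 11.41 and 11.07 in the controls and at 14.78 and 14.81 with the shRNA. This was an 11.7-fold rise (log2 fold change 3.55, standard error 0.12, adjusted p = 1.6e-06) on its only probe. RAD21L1 and STAG3 did not pass, at -0.01 and 0.06. SMC1B was well above background on 2 arrays, with -0.47. Of these 5 genes, STAG1 included, 2 passed as lower and 1 as higher, beside 32.4% and 31.4% of all genes. SMC1B is 1 of the lower calls and passed the filter through the arrays of 1 group only, and the count of lower calls was 1 where signal was required on all arrays and 1 under median centring.

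The related SMC5/6 complex, which acts in DNA repair, had a smaller median fall than the condensin or the cohesin members. SMC5 was at -0.65 (standard error 0.08, adjusted p = 0.00038) and SMC6 at 0.19, which did not pass (adjusted p = 0.071). Of its 7 genes, 4 passed as lower and none as higher, beside 32.4% and 31.4% of all genes. The list ran from EID3 at -1.06 to SMC6, with a median of -0.59. With normexp fitted on all spots or under cyclic loess, 1 gene passed as higher. Where a 2-fold change was also required, 1 passed as lower. Genes of proteins that work beside condensin on chromosomes were mostly lower. TOP2A, the topoisomerase of the chromosome axis, was at -4.83, MKI67, the antigen Ki-67 of the chromosome surface, at -4.30, and the kinesin KIF4A, which binds condensin, at -4.22. TOP2B, the isoform also made in resting cells, was at -1.11. AKAP8 did not pass, at -0.17, and PHF8 was higher by 0.54. Thus 4 of the 6 passed as lower and 1 as higher, beside the same 32.4% and 31.4% of all genes. TOP2A and MKI67 were also in the proliferation list, and MCPH1 was not analysed here.

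**Figure D3:**
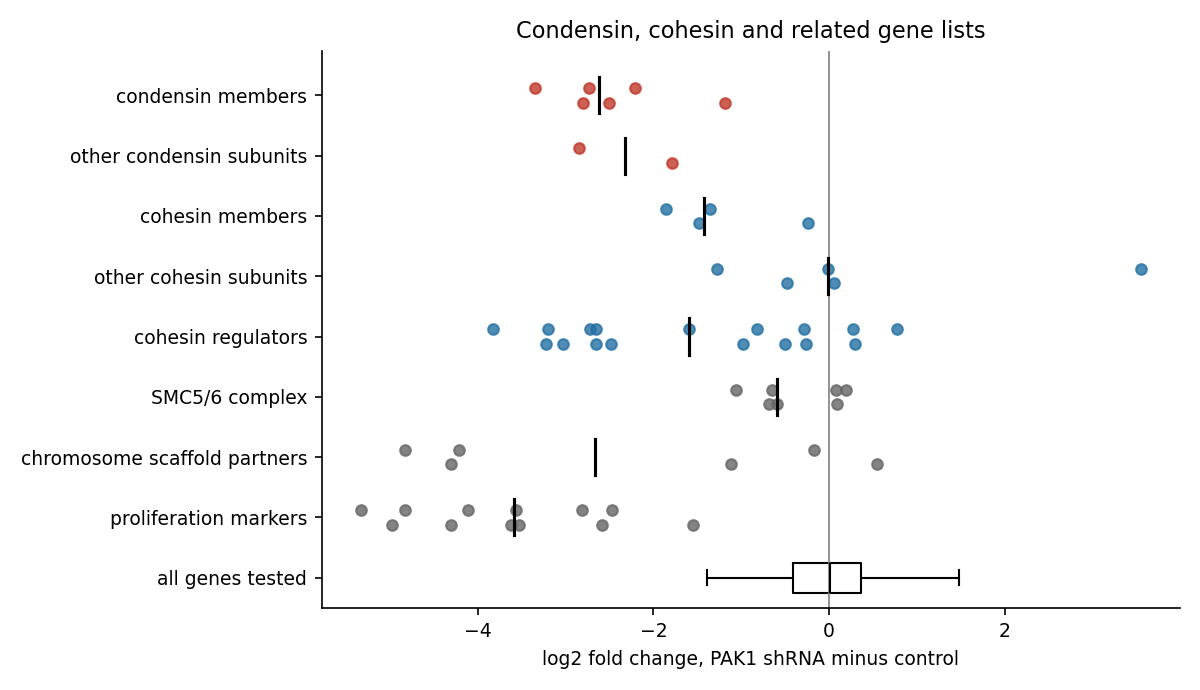
Log2 fold change of every tested gene of each list (points) with the list median (black bar); the box for all 20583 genes shows the quartiles and the median, with whiskers at percentiles 5 and 95. Condensin members (median -2.62) lie left of cohesin members (median -1.42), and REC8 stands alone at 3.55 among the other cohesin subunits.

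With the processing, sizes varied most for NCAPG and NCAPH, and the directions of 9 of the 10 genes did not change. NCAPD2 stayed between -3.41 and -3.16, SMC3 between -1.42 and -1.28 and RAD21 between -1.91 and -1.73 over 18 alternatives. NCAPG ranged from -4.36 to -1.72. The exception in direction was STAG2, as above.

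**Figure D4:**
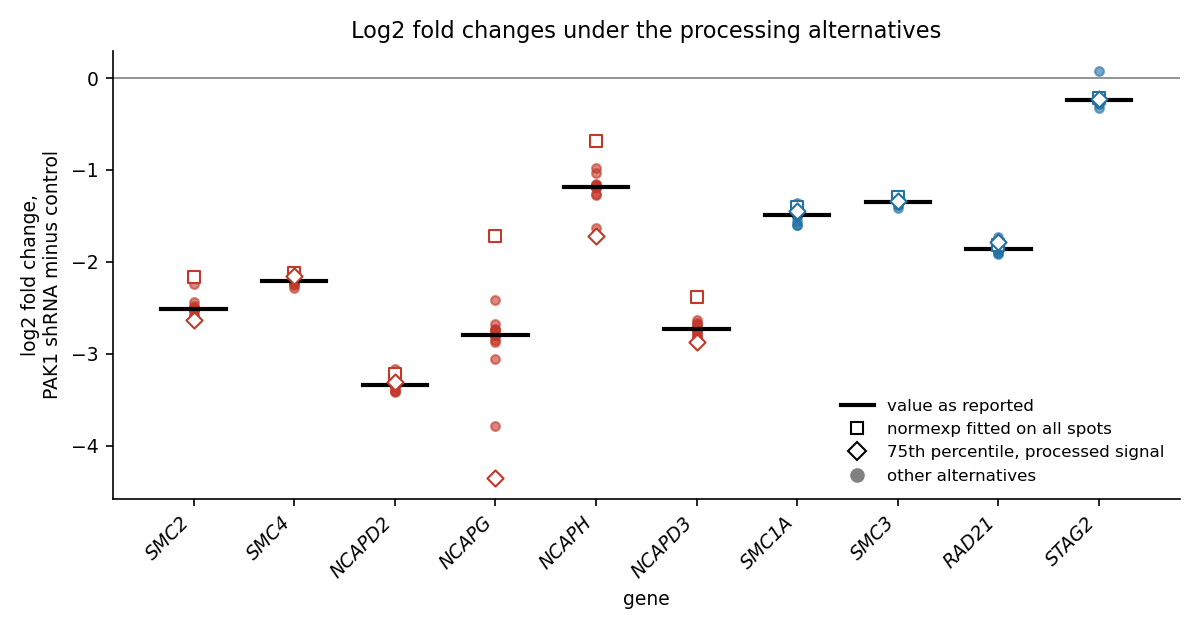
Log2 fold change of each subunit as reported (black bar) and under 18 processing alternatives (points), with the background model fitted on all spots as squares and the processed signal scaled to its 75th percentile as diamonds. The points of NCAPG spread from -4.36 to -1.72, and STAG2 crosses 0 only where probes are averaged.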

How the data were processed

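RNA of 2 control and 2 PAK1 shRNA samples of MCF10A.B2 was hybridized in 1 colour to Agilent whole genome arrays. Spot and local background intensity were deposited by the authors as read by Agilent Feature Extraction (version 9.5.3.1), not normalized between arrays. Their processed log2 values, deposited by the authors beside these, served as an alternative. These correlated with the values computed here at 0.999 or above over 24286 probes.

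Normexp background correction and quantile normalization follow the methods of the study; the offset of 50 was set here. The normexp fit left out spots of flagged local background. Fitted on all spots, the model had a background mean of -666 and -740 for the controls and -10.7 and -10.2 for the shRNA arrays. Without the flagged spots it was -12.1 to -9.19. Rows named only by a probe ID were dropped, as were spots with a flag for the feature or an uneven background (275 to 355 per array), and 206 probes without a value on every array were left out. A probe had to be well above background on both arrays of either group, and the brightest stood for its gene. The test was limma's moderated one (lmFit, eBayes; limma 3.58.1, R 4.3.3), adjusted by Benjamini-Hochberg over all genes, with calls at 0.05. The test was checked on simulated data.

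The members, lists and tests were chosen with earlier results of these data known. The genes named are the members, PAK1, and genes of the related lists, with at least the lowest and highest value of each, and the 5 genes outside the lists nearest to the condensin profile. The slide was not fitted as a block, since there was 1. Alternatives covered the background, signal, normalization, filter, flags, probe rule, test, block, threshold and each array left out. Protein sequences were not used here.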

Additional observations from a re-analysis of the deposited data

How the results depend on the processing

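An offset of 1 was chosen after the data were seen. Of 198 values of the members and PAK1 under alternatives, 190 changed neither direction nor call, and the rest were all STAG2. STAG2 was -0.23 (adjusted p = 0.074) when processed signals were scaled to the 75th percentile, -0.20 under cyclic loess (0.058), -0.24 with the unpaired t-test on the same values (0.084), -0.24 with an offset of 1 (0.052) and 0.075 with probes averaged (0.38), over a range of adjusted p from 0.012 to 0.38. With each array left out in turn it ranged from -0.28 to -0.19. The difference of medians, condensin minus cohesin, was -0.80 with normexp fitted on all spots, -1.02 without background correction, -1.36 with the 75th percentile, -1.15 under median centring, -1.24 in the authors' processed values, -1.09 with probes averaged, -1.28 with an offset of 1 and -1.26 to -1.10 with an array left out. The cause was not tested. All 6 condensin subunits passed as lower under every alternative run. The median of all genes moved from 0.016 to 0.13 under median centring and 0.11 with the 75th percentile. Over all genes 6464 were higher and 6668 lower, against 4283 and 4621 with the unpaired t-test after adjustment and 1874 and 1928 at 2-fold. The balance turned to 7929 higher and 6352 lower under median centring, 7167 and 6089 with the 75th percentile and 6936 and 6355 under cyclic loess. Blocking on replicate number, 13418 genes passed against 13132, and no call among the members was lost. Arrays of one number did not deviate jointly (r = 0.016 across 20583 genes), and the numbers were not taken as pairs. Of 320 further counts and medians of lists under alternatives, 291 stayed within the replicate spread or 1.5 times of the count and 29 moved, none with a change of direction. The condensin median was among those that moved, in 10 of 18 alternatives (-2.75 to -2.14). The cohesin median moved in 6 of 18 (-1.49 to -1.34). The difference of medians, not among the 320, moved in 10 of 18. Signal over background limits NCAPG and NCAPH, which were dim in PAK1 shRNA cells.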

Other observations

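The genes whose pattern was most like that of condensin were sought outside the lists, by the Euclidean distance over the 4 arrays between a gene's log2 intensity, centred on its own mean, and the mean profile of the 6 condensin subunits. Of 20491 genes, the nearest were PHF2, CA2, ZNF275, XRCC6BP1 and C15orf23, at distances from 0.024 to 0.057. Their log2 fold changes lay between -2.48 and -2.44. With 4 arrays in 2 groups such a likeness mostly ranks genes by the size of their fall.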
